A study of Temnothorax americanus and Temnothorax ambiguus and Temnothorax curvispinosus with 48 samples.

Results

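Among the contigs called by the study between behavioural states in 6 Temnothorax ants, 39 had a best protein match to a lipid carrier, a lipase or a lipoprotein receptor. A contig is an assembled transcript or a piece of one. The 39 were found by words in the title of the best match (tocopherol transfer, fatty acid-binding, apolipophorin, lipase, scavenger receptor class B or sphingomyelin phosphodiesterase) among 2140 named contigs, which in turn belonged to 4088 contigs in the deposited tables of called contigs and to 339894 contigs counted. They comprised 20 alpha-tocopherol transfer proteins, 3 fatty acid-binding proteins, 2 scavenger receptors class B member 1, 3 sphingomyelin phosphodiesterases, 4 lipases and 7 phospholipases, and no title named an apolipophorin. T. americanus held 11 of them, T. duloticus 6, T. pilagens 14, T. longispinosus 1, T. curvispinosus 2 and T. ambiguus 5. Because the study called these contigs by comparing the same libraries, the differences between states are given as a description without a test. Only the 6 libraries that its calls did not use stand apart from that choice, and the study had removed those as outliers.

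The study compared slavemakers, socially parasitic ants that steal brood from other ants' nests, with the hosts that defend themselves. Each library held RNA from 6 whole workers, 2 from each of 3 colonies, and 4 libraries were made per species and state, 48 in all. Raiding slavemakers (T. americanus, T. duloticus and T. pilagens) were taken while fighting at the host nest, and non-raiding slavemakers after the raiding season. Host workers (T. longispinosus, T. curvispinosus and T. ambiguus) were taken as foragers ahead of a raid, here non-raiding, or while fighting near their nest, here raiding or defending. In slavemakers the state and the season cannot be told apart, and in hosts the state and the task of the worker cannot be told apart. Slavemaker workers were infertile by ovary dissection in both states. The same colonies were pooled in both states, all ants lived in laboratory nests, and raids of T. pilagens on T. ambiguus were run a year after those of the other pairs.

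The study removed 6 libraries before its test, 1 raiding library of T. americanus, 1 raiding library of T. pilagens, and from both T. longispinosus and T. curvispinosus 1 library of each state. It described them as outlying replicates in an analysis of how the samples group. The 42 libraries kept had between 5936238 and 49129121 counts. The left-out non-raiding library BR_411 of T. curvispinosus had 88952971. Libraries were assigned to states by their titles. Some contig identifiers carry a library tag that can be read as the other state in slavemakers, smadr on 8 libraries titled as non-raiding and smifors on 4 titled as raiding. In hosts the tag hfbr stood on 7 non-raiding libraries and hfdr on 4 raiding ones. No source used here explains the tags, and every direction given for a slavemaker depends on the titles. Among the members, contig_3355, contig_1782, contig_12125 and contig_44649 carry the tag of a library titled as the state in which they were higher. The identifier of contig_50359 carries that of a library of the other state. In the T. duloticus table the raiding libraries carry the letters of the other state and were matched by library number. Levels are given as CPM, counts scaled to a library of 1000000 counts after TMM normalization. In whole-body RNA, fewer cells of a type and less RNA per cell cannot be told apart.

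Insects store lipid in the fat body and move it through the haemolymph on lipophorin particles, from which tissues take up fatty acids, sterols and fat-soluble vitamins. Inside cells, fatty acid-binding proteins carry fatty acids between membranes. In mammals, alpha-tocopherol transfer protein loads vitamin E for export, and insect proteins of this name belong to the large CRAL-TRIO family of carriers for hydrophobic molecules. Scavenger receptor class B member 1 is the mammalian receptor for high-density lipoprotein, and a class B relative is needed for carotenoid uptake in Drosophila. Lipases and phospholipases release fatty acids from stored, dietary or membrane lipid, and sphingomyelin phosphodiesterase cuts sphingomyelin into ceramide and phosphocholine.

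Fatty acid-binding protein, the carrier of fatty acids, was higher in raiding than in non-raiding workers of all 3 slavemakers. In T. americanus the non-raiding libraries had 3.38, 6.32, 6.85 and 12.5 CPM of contig c697 and the kept raiding libraries 36.7, 41.6 and 66.4 CPM. Its mean was 7.27 ± 3.83 CPM (SD, n = 4) without raids and 48.2 ± 15.96 CPM (SD, n = 3) during raids, a log2 fold change of 2.72 (SE 0.42). The lowest raiding library lay 2.92 times above the highest non-raiding one, the widest gap of the 3 carriers. In T. duloticus, rep_c2233 had 64.8, 71.9, 82.1 and 82.9 CPM in non-raiding and 124, 154, 167 and 195 CPM in raiding libraries, a log2 fold change of 1.09 (SE 0.14). In T. pilagens, rep_c17188 had 41.5, 66.4, 68.2 and 91.3 CPM in non-raiding and 170, 172 and 249 CPM in raiding libraries, a log2 fold change of 1.56 (SE 0.25). The states did not overlap in any of the 3 species. The T. duloticus and T. pilagens contigs had the same best match, a fatty acid-binding protein of Harpegnathos saltator, with 80 matching residues over 137 codons in each, whereas c697 was matched over 87 codons, at 58.6% identity, to a partial protein of another ant. Identity here is the deposited number of matching residues per codon of the match, and no source used here says whether that number also counts similar residues. The raiding library of T. pilagens left out by the study had 185 CPM, inside the range of its state, and that of T. americanus 29.7 CPM, below the kept raiding libraries but above every non-raiding one. Summed muscle contigs, named here only where the study called them, were also higher in raiding T. americanus (2 contigs, 309 to 384 against 633 to 668 CPM) and T. pilagens (9 contigs, 5 of 8 tested higher, 1 at 0 throughout non-raiding libraries, 971 to 1331 against 1364 to 1508 CPM), and lower in raiding T. duloticus (2 contigs, 234.5 to 394 against 27.5 to 183 CPM). These sums held different genes. Those of T. americanus were titin, and those of T. duloticus troponin C and paramyosin. In T. pilagens titin was higher, while troponin C (means of 378 non-raiding and 117 CPM raiding) and paramyosin (26.7 and 11.7 CPM) were lower, as in T. duloticus. Transferrin, a fat body marker, had 292 to 949 CPM in non-raiding and 842 to 2990 CPM in raiding T. duloticus, and 136 to 425.5 and 343 to 829 CPM in T. pilagens, with states that overlapped in both. The part of these tissues in the carrier values was not tested.

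Sphingomyelin phosphodiesterase was lower in raiding workers of all 3 slavemakers. The 3 contigs shared 1 best match, with 93.7% to 94.2% identity over 710 to 729 codons. In T. americanus, rep_c9903 had 43.1, 44.9, 50.8 and 51.8 CPM in non-raiding and 23.5, 23.8 and 24.0 CPM in raiding libraries. In T. duloticus, rep_c18534 had 19.9, 24.8, 25.8 and 32.6 CPM in non-raiding and 12.1, 13.2, 14.3 and 15.1 CPM in raiding libraries. In T. pilagens, rep_c8158 had 46.1, 46.7, 51.3 and 51.6 CPM in non-raiding and 18.9, 21.7 and 23.6 CPM in raiding libraries. The states were separate in each species, and the log2 fold changes were -1.0 (SE 0.11), -0.92 (SE 0.15) and -1.19 (SE 0.10). Within a state the libraries varied little, with coefficients of variation between 1.02% and 20.3%. The raiding libraries left out by the study had 25.3 CPM in T. americanus and 19.1 CPM in T. pilagens, both on the low side with the other raiding libraries. Nervous system contigs, named here only where called, were also lower in raiding workers. Their summed level ran from 195 to 316 CPM in non-raiding and 84.8 to 117 CPM in raiding T. americanus (3 of 3 contigs lower), from 84.2 to 132 and 44.6 to 61.9 CPM in T. duloticus (2 of 2 lower), and from 458 to 491 and 222 to 266 CPM in T. pilagens (9 of 9 lower), with none at 0 throughout a state. The part of the nervous system and, as above, of muscle in the enzyme values was not tested.

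Scavenger receptor class B member 1 was lower in raiding workers of the 2 slavemakers in which a contig of this name was called. In T. americanus, rep_c4209 had 57.8, 76.9, 90.7 and 98.1 CPM in non-raiding and 18.8, 27.4 and 42.4 CPM in raiding libraries, means of 80.9 ± 17.7 (SD, n = 4) and 29.5 ± 11.96 (SD, n = 3). In T. duloticus, c25678 had 57.8, 128, 212 and 366 CPM in non-raiding and 8.69, 11.6, 12.7 and 21.1 CPM in raiding libraries, means of 191 ± 133 and 13.5 ± 5.35 (SD, n = 4 each). The log2 fold changes were -1.45 (SE 0.29) and -3.82 (SE 0.56). The non-raiding libraries of T. duloticus spread widely, but the lowest of them still lay 2.73 times above the highest raiding library. The contigs were matched to different records, at 76.5% and 69.7% identity, so they need not be the same gene. The left-out raiding library of T. americanus had 33.9 CPM. The 5 named ovary and yolk contigs of T. duloticus, 4 of them lower in raiding workers and none at 0 throughout a state, summed to between 3876 and 14570 CPM in non-raiding and 611 and 2679 CPM in raiding libraries, and their part in the receptor value was not tested. In the tables used here a receptor contig of T. pilagens that was not called would carry no name, so nothing is said of that species.

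**Figure D1:**
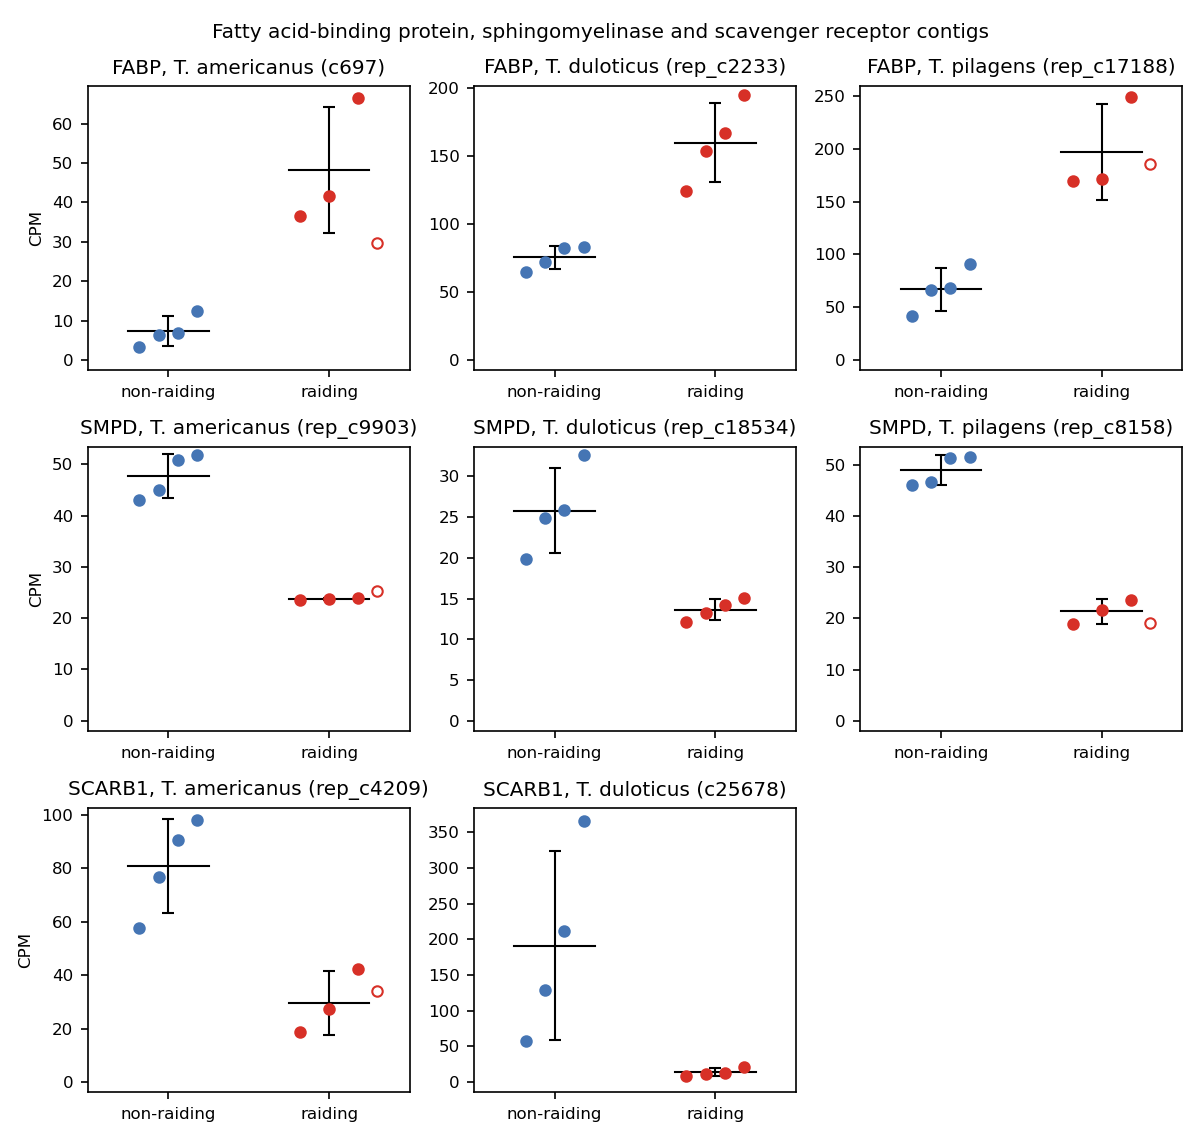
Each panel shows CPM per library of 1 contig matched to fatty acid-binding protein (FABP), sphingomyelin phosphodiesterase (SMPD) or scavenger receptor class B member 1 (SCARB1) in non-raiding and raiding workers. Filled points are libraries kept by the study, open points the raiding libraries it left out, and bars the mean and SD of the kept libraries. FABP points lie higher, and SMPD and SCARB1 points lower, in raiding workers.

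Alpha-tocopherol transfer protein was the most frequent name, and its contigs did not share a direction in slavemakers. In T. americanus 5 of 6 contigs were higher in raiding workers, in T. duloticus the single contig was higher, and in T. pilagens 3 of 10 were higher and 7 lower. All 17 had states that did not overlap, where 13.7% of all contigs tested did so in T. americanus, 9.0% in T. duloticus and 17.3% in T. pilagens. Since the members were picked by this contrast, nothing is read from that excess. The log2 fold changes ran from -1.28 to 5.73 in T. americanus and from -1.60 to 0.90 in T. pilagens, and the smallest of them, 0.73 for rep_c12614 of T. pilagens and 0.74 for rep_c8258 of the same species, were the smallest of all members fitted. In the tables used here only called contigs carry a name, so no value just outside the threshold is given.

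The widest difference among the slavemaker members was that of contig_3355 in T. americanus, which had 0.0527, 0.643, 1.26 and 2.98 CPM in non-raiding and 37.8, 48.3 and 76.0 CPM in raiding libraries. Behind the non-raiding levels stood 1 to 25 counts per library, and behind the raiding levels 881 to 1329. The log2 fold change was 5.73 (SE 0.77) and lay between 5.27 and 6.35 when any 1 library was left out. The left-out raiding library had 55.6 CPM, in the middle of its state. This contig had 52.2% identity over 113 codons to its best match, the lowest identity of the 20 contigs of this name.

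Other T. americanus carriers of this family differed less. rep_c8615 had 4.64, 5.35, 5.66 and 7.97 CPM in non-raiding and 21.3, 21.3 and 27.1 CPM in raiding libraries, a log2 fold change of 1.97 (SE 0.22). rep_c8585 had 46.6, 49.0, 50.2 and 63.6 CPM in non-raiding and 12.1, 22.2 and 30.4 CPM in raiding libraries, a log2 fold change of -1.28 (SE 0.29). It was the only family member of T. americanus that was lower during raids, although it had the same best match as rep_c8615. The remaining 3 contigs of T. americanus were higher in raiding workers. rep_c13194 ranged from 74.9 to 86.9 CPM in non-raiding and 127 to 139 CPM in raiding libraries, rep_c12978 from 11.0 to 31.0 and 36.6 to 45.8 CPM. The lowly counted rep_c37737 ranged from 0.316 to 0.844 and 1.86 to 5.26 CPM.

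In T. pilagens the 3 contigs with the largest differences were all lower in raiding workers. rep_c20924 had 25.5, 31.9, 34.7 and 41.6 CPM in non-raiding and 7.86, 11.9 and 13.3 CPM in raiding libraries, a log2 fold change of -1.60 (SE 0.23). rep_c11146 had 261, 284, 285 and 339 CPM in non-raiding and 87.1, 111 and 151 CPM in raiding libraries, a log2 fold change of -1.33 (SE 0.19). rep_c4114 had 71.6, 73.6, 77.7 and 105 CPM in non-raiding and 28.9, 35.7 and 40.1 CPM in raiding libraries, a log2 fold change of -1.23 (SE 0.17). The other 4 lower contigs had log2 fold changes from -1.01 to -0.87, and the 3 higher ones from 0.73 to 0.90. In T. duloticus, c99 had 29.0, 33.6, 36.1 and 42.9 CPM in non-raiding and 51.7, 53.5, 66.7 and 81.6 CPM in raiding libraries, a log2 fold change of 0.84 (SE 0.17).

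The same best match did not mean the same direction. A single alpha-tocopherol transfer protein of the leafcutter ant Acromyrmex echinatior was the best match of 8 contigs in the 3 slavemakers, 4 in T. americanus, 1 in T. duloticus and 3 in T. pilagens, with identities of only 60.4% to 64.2%. Of these 8, 6 were higher in raiding workers, with log2 fold changes of up to 2.64, and rep_c8585 of T. americanus and rep_c20924 of T. pilagens were lower. At such identities the contigs of 1 species need not belong to 1 gene. In T. pilagens another record was shared by contig_50359 (74 codons, log2 fold change 0.90) and rep_c24658 (125 codons, log2 fold change -0.95). Where such contigs share sequence, the counting by the authors could have divided reads between them, and the split was not tested.

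**Figure D2:**
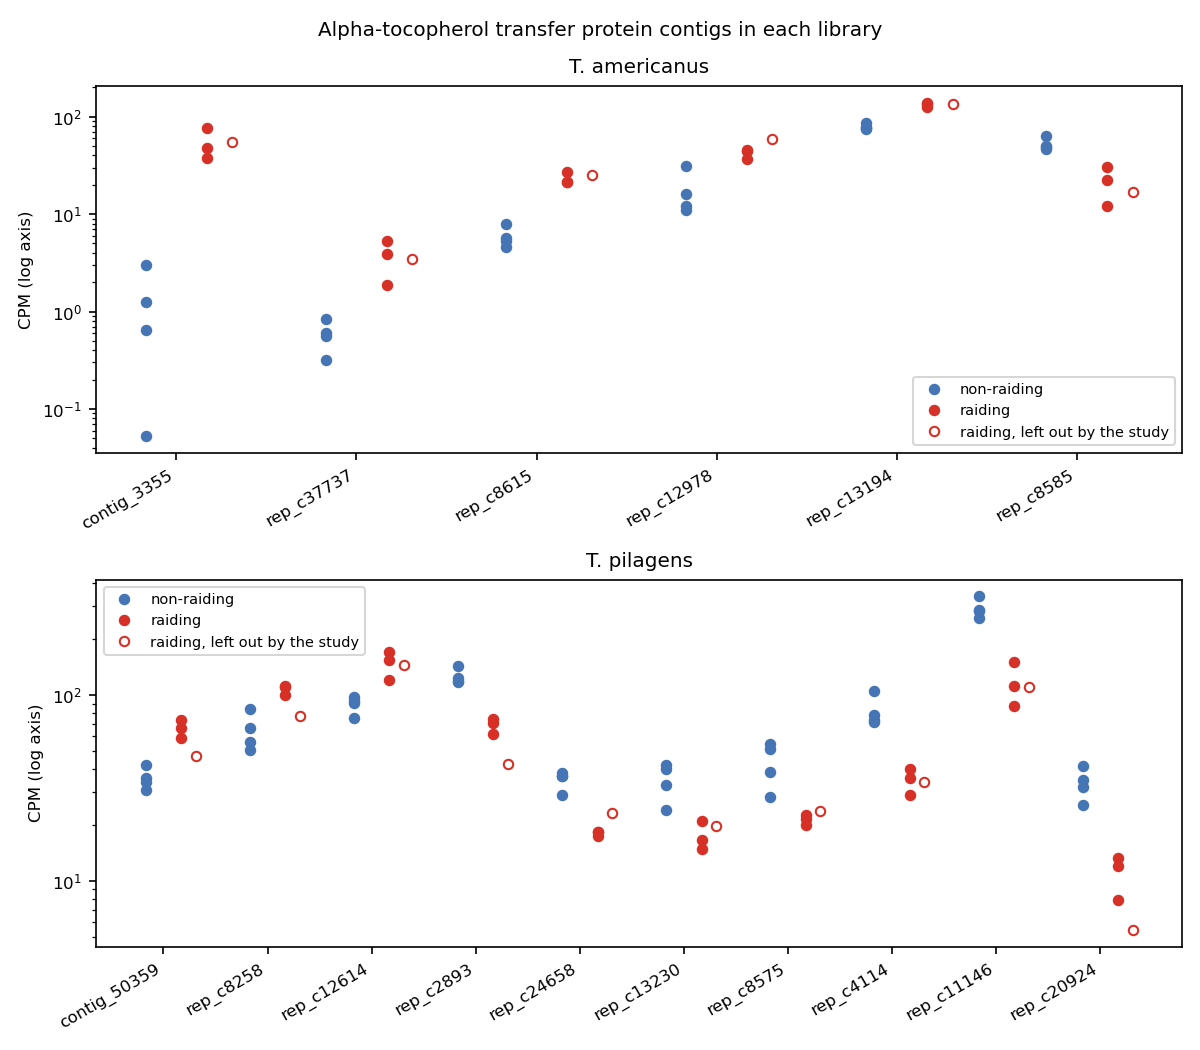
CPM per library, on a log axis, of the alpha-tocopherol transfer protein contigs of T. americanus (top, 6 contigs) and T. pilagens (bottom, 10 contigs), ordered by log2 fold change. Filled points are kept libraries and open points the raiding library left out by the study. 5 contigs of T. americanus and 3 of T. pilagens lie higher in raiding workers, and the others lower.

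The lipases of the 3 slavemakers also differed in direction. All carried names of the pancreatic lipase family, enzymes that split triglycerides in the mammalian gut and that in insects have both digestive and other members. In T. americanus, c598 had 50.5, 51.1, 89.5 and 191 CPM in non-raiding and 10.6, 25.6 and 29.5 CPM in raiding libraries, a log2 fold change of -2.12 (SE 0.57). In T. duloticus, rep_c15736 had 71.0, 137, 179 and 201 CPM in non-raiding and 3.96, 25.2, 32.2 and 55.7 CPM in raiding libraries, a log2 fold change of -2.33 (SE 0.65). Both were lower in every raiding library, with wide spread in both states. In T. pilagens, contig_1782 had 10.05, 10.2, 12.9 and 15.6 CPM in non-raiding and 17.6, 24.5 and 26.2 CPM in raiding libraries, a log2 fold change of 0.90 (SE 0.20). The 3 had different best matches, with 85.1%, 83.2% and 79.5% identity.

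Trypsin and chymotrypsin contigs, markers of the digestive tract, were named here only where the study called them. Their summed level ran from 114 to 425.6 CPM in non-raiding and 24.9 to 104 CPM in raiding T. duloticus (3 contigs, none at 0 throughout a state), from 276 to 457 and 141 to 209 CPM in T. pilagens (5 contigs, 1 at 0 throughout non-raiding libraries), and from 9.48 to 88.9 and 79.4 to 735 CPM in T. americanus (4 contigs, 2 at 0 throughout raiding libraries). The summed marker level thus moved with the lipase in T. duloticus and against it in T. pilagens. In T. americanus the sums overlapped. Both Trypsin-7 contigs rested on non-raiding library BR_436, with 53.9 CPM (contig_43034) and 23.8 CPM (contig_43040), were at most 0.402 CPM in the other non-raiding libraries and were at 0 in raiding ones. Trypsin-1 ranged from 1.94 to 8.72 CPM in non-raiding and 0.87 to 1.54 CPM in raiding libraries. Chymotrypsin-1 (rep_c5070) had 0.605, 9.23, 21.4 and 21.7 CPM in non-raiding and 78.5, 91.9 and 733 CPM in raiding libraries, and its raiding mean of 301 CPM became 85.2 CPM without DR_440. The part of gut content in the lipase values was not tested.

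The slavemakers had 3 phospholipase contigs, 2 with names of phospholipase A2 and 1 of phospholipase A1. In T. americanus, rep_c10805, a group 3 secretory phospholipase A2 of the class that includes the main bee venom phospholipase, had 168, 169, 174 and 213 CPM in non-raiding and 84.9, 96.8 and 98.6 CPM in raiding libraries, a log2 fold change of -0.95 (SE 0.12). The 1 venom gland contig named in T. americanus, matched to the antigen Sol i 3 (contig_33815), had 0, 0, 7.16 and 7.74 CPM in non-raiding libraries, 0 in the kept raiding ones and 3.28 CPM in the left-out raiding one, and its part in the enzyme value was not tested. In T. duloticus, rep_c8460, named venom phospholipase A1, had 43.2, 44.0, 66.6 and 85.8 CPM in non-raiding and 3.57, 7.48, 18.2 and 25.3 CPM in raiding libraries, a log2 fold change of -2.14 (SE 0.55). Its identity to the venom enzyme was 40.6% over 357 codons, and the wider family also holds lipases that are not venom proteins. The other venom gland contig of T. duloticus, venom allergen 3, had 326 to 531 CPM in non-raiding and 159 to 310 CPM in raiding libraries, a log2 fold change of -0.91 (SE 0.23), and its part in the enzyme value was not tested. In T. pilagens, rep_c9111, named phospholipase A2, ranged from 1.85 to 3.55 CPM in non-raiding and from 4.78 to 10.6 CPM in raiding libraries, a log2 fold change of 1.41 (SE 0.35). The states did not overlap for any of the 3.

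**Figure D3:**
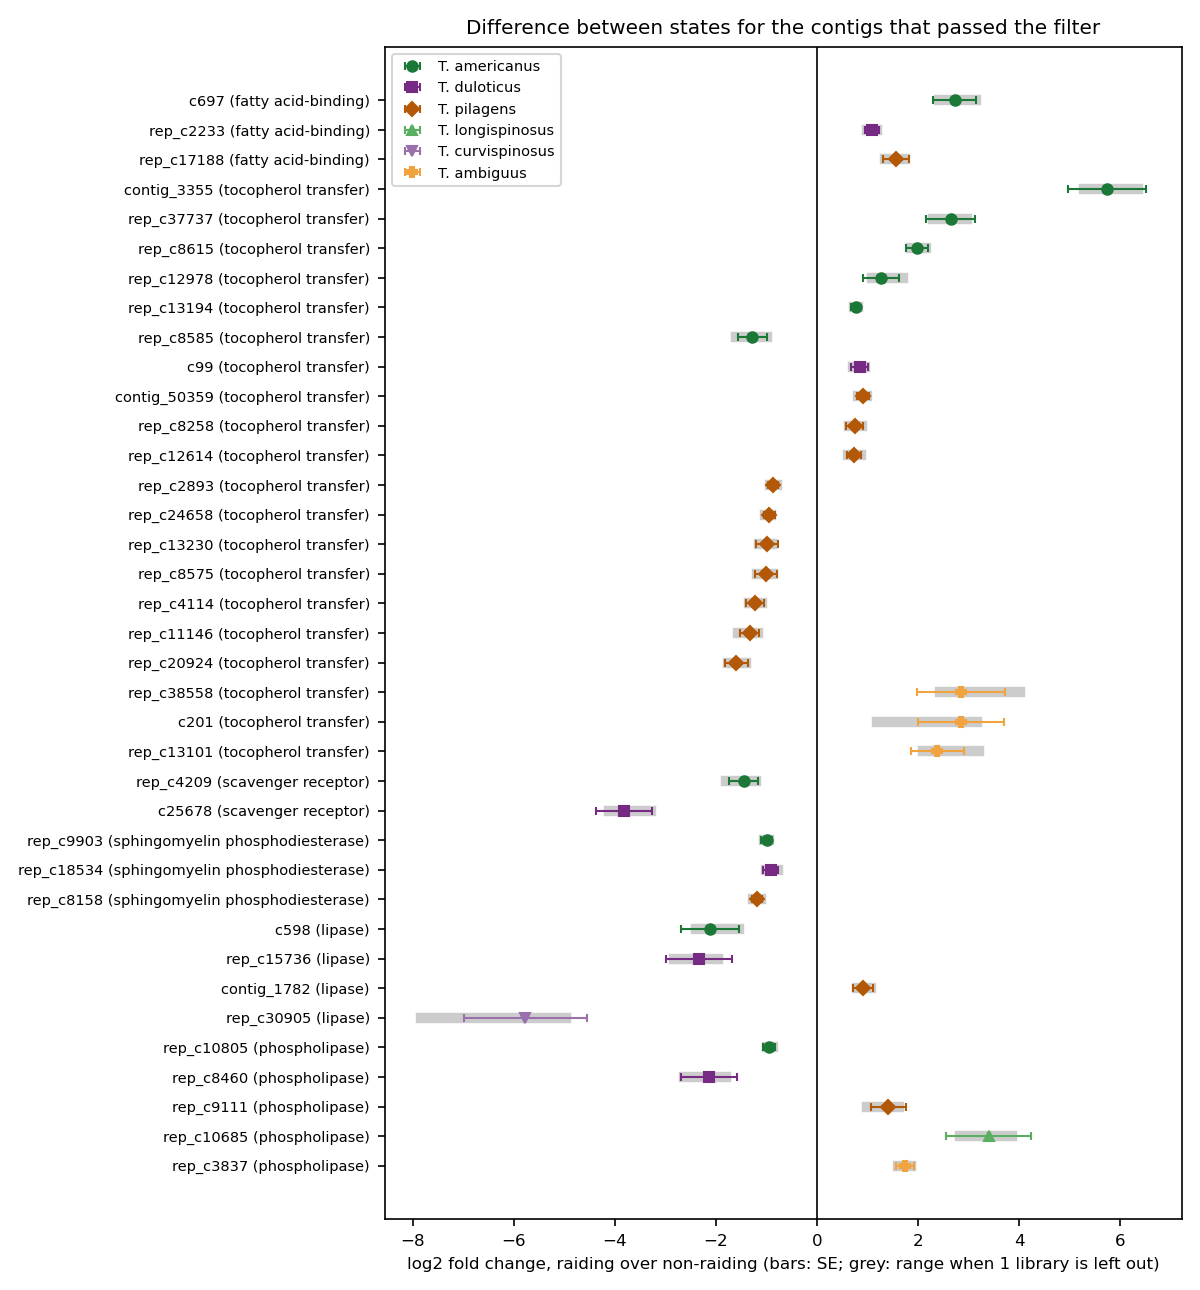
Log2 fold change, raiding over non-raiding, of the 37 members that passed the filter on low counts, with SE bars and a grey band for the range when any 1 kept library is left out. Colours and symbols mark the species and labels the contig and its group. The FABP contigs lie right of 0, the SMPD and SCARB1 contigs left of 0, and the alpha-tocopherol transfer proteins on both sides.

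The members of the host species were fewer and mostly low. In T. ambiguus, 3 contigs named alpha-tocopherol transfer protein-like were higher in defending workers. rep_c13101 had 1.49, 1.97, 3.15 and 8.98 CPM in foraging and 17.3, 18.6, 19.5 and 26.4 CPM in defending libraries, a log2 fold change of 2.38 (SE 0.52), which became 3.20 without the non-raiding library BR_691. rep_c38558, with the same best match, had 0, 0.492, 0.692 and 2.38 CPM in foraging and 4.19, 5.27, 5.45 and 11.2 CPM in defending libraries, a log2 fold change of 2.84 (SE 0.87). For c201 the difference rested largely on 1 library. It had 1.07, 1.51, 1.55 and 2.07 CPM in foraging and 2.65, 3.25, 4.69 and 34.0 CPM in defending libraries, and the log2 fold change of 2.84 (SE 0.85) became 1.18 without the defending library DR_695. Its best match was that of rep_c12978 of T. americanus, at 90.8% and 89.9% identity over 306 codons in both, and both were higher in the state called raiding here.

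Another group 3 secretory phospholipase A2, rep_c3837 of T. ambiguus (94.6% identity over 351 codons), had 13.7, 18.3, 20.8 and 23.9 CPM in foraging and 51.4, 64.9, 66.6 and 72.4 CPM in defending libraries, means of 19.2 ± 4.31 and 63.8 ± 8.89 CPM (SD, n = 4 each), and a log2 fold change of 1.74 (SE 0.18). In T. longispinosus, rep_c10685 of the same name had 0.109, 0.29 and 0.32 CPM in foraging and 0.538, 2.95 and 4.26 CPM in defending libraries, from 2 to 7 and 11 to 90 counts. Its log2 fold change was 3.39 (SE 0.85), and the left-out libraries had 0.225 CPM foraging and 1.88 CPM defending, each inside the range of its state. Its best match was that of rep_c10805 of T. americanus, which was lower in raiding workers, but with 52.3% identity over 88 codons against 93.1% over 231 codons, so the 2 contigs need not come from the same gene.

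The remaining 3 host members were near 0 in 1 state. In T. curvispinosus, rep_c30905, named lipase 3, of the acid lipase family, had 0.562, 0.905 and 2.23 CPM in foraging libraries and 0, 0 and 0.0462 CPM in defending ones. Pooled over libraries this was 86 counts against 1, a ratio of 68.3 with a 95% exact interval of 11.9 to 2730 that covers counting error only. The ratio became 44.2 without foraging library BR_409 and 30.9 without defending library DR_416, and without DR_413, which held the 1 defending count, at least 14.7. The left-out libraries had 0.695 CPM foraging and 0 CPM defending. contig_12125 of the same species, named 85 kDa calcium-independent phospholipase A2, an enzyme of membrane phospholipid turnover, had no count in the foraging libraries and 0.179, 1.33 and 3.0 CPM in the defending ones. Of its 79 defending counts, 65 came from library DR_413, whose tag its identifier carries. Against a floor of 3 counts over the group it was at least 33.1-fold higher in defending workers, a bound that became 9.1 without DR_413, 67.7 without DR_416 and 20.1 or 21.7 without the foraging library BR_410 or BR_412, and the left-out defending library had no count either. In T. ambiguus, contig_44649, named phospholipase A2 isozyme PA4 from a match of 54 codons, had 0, 0, 0 and 0.297 CPM in foraging and 0, 2.22, 3.10 and 3.49 CPM in defending libraries. It was the only 1 of the 39 members whose states overlapped, and the last 2 contigs did not pass the filter on low counts.

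Markers of other tissues moved with the state in hosts too, again named only where called. In T. ambiguus the summed level of 3 ovary and yolk contigs ran from 65.6 to 2228 CPM in foraging and 2086 to 12030 CPM in defending libraries, with none at 0 throughout a state. The sum of 5 digestive tract contigs ran from 9.13 to 47.6 CPM and from 138 to 1504 CPM, with 1 at 0 throughout foraging libraries. Most of it was Chymotrypsin-1 rep_c21941 (8.37 to 46.6 and 135 to 1400 CPM). The Trypsin-7 contigs had 10.5 to 43.5 CPM in defending library DR_695 and at most 3.58 CPM in the other defending libraries. In T. longispinosus, 8 digestive tract contigs summed to between 32.1 and 88.35 CPM in foraging and 505.5 to 2618 CPM in defending libraries, with 4 at 0 throughout foraging libraries, and 2 ovary and yolk contigs to between 31.9 and 59.1 and 87.3 and 320 CPM. In T. curvispinosus the 1 digestive tract contig was at 0 in foraging and at 0 to 6.31 CPM in defending libraries. The part of these tissues in the host members was not tested.

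**Figure D4:**
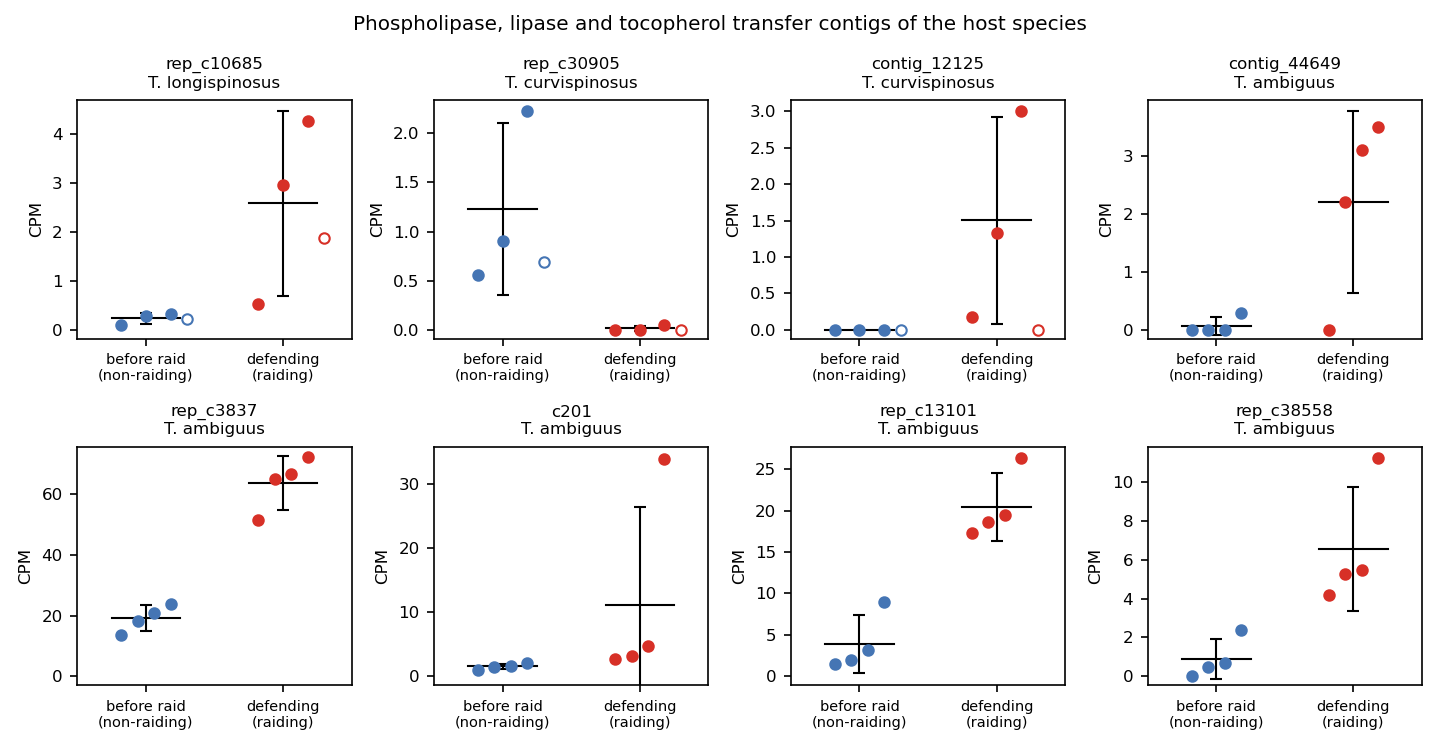
CPM per library of the 8 host contigs in foraging workers (non-raiding) and defending workers (raiding) of T. longispinosus, T. curvispinosus and T. ambiguus. Filled points are kept libraries, open points libraries left out by the study, and bars the mean and SD of the kept libraries (the lower bar of c201 runs below the axis). 7 contigs have a higher mean in defending workers and rep_c30905 a lower one.

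A fit across the whole table of each species, with edgeR's quasi-likelihood test and Benjamini-Hochberg adjustment, gave an adjusted p under 0.05 for 6 of 11 members in T. americanus (4 higher and 2 lower in raiding workers), where 0.805% of 40389 contigs passed (0.421% as higher and 0.384% as lower). Without raiding library DR_437, DR_438 or DR_440, 0 of the 11 passed. With DESeq2 or the likelihood ratio test all 11 did (6 higher, 5 lower). Those tests called 1841 and 1106 of all 40389 contigs, where the quasi-likelihood fit called 325. The quasi-likelihood fit called 2 of 6 members in T. duloticus (1 higher, 1 lower), where 0.363% of 41591 contigs passed. In T. pilagens it called 9 of 14 (3 higher, 6 lower), where 2.88% of 38402 passed. Without library BR_417, BR_419 or DR_422, 0 of the 6 in T. duloticus passed, and with either other test all 6 did (2 higher, 4 lower). There DESeq2 called 1951 and the likelihood ratio test 936 of all 41591 contigs, against 151 in the quasi-likelihood fit. The 3 higher members of T. pilagens became 6 with either other test and 1 without BR_681, BR_682, DR_684 or DR_685. Of all 38402 contigs tested there, DESeq2 called 2840 and the likelihood ratio test 2054, against 1105 in the quasi-likelihood fit. In the hosts 0 of 6 members tested passed, as did 0 contigs in all, although 1447 of 38320 contigs for T. longispinosus, then 1270 of 42631 tested in T. curvispinosus, and 2683 of 33331 tested for T. ambiguus had an unadjusted p under 0.05. DESeq2 called 100, 68 and 470 host contigs. The median log2 fold change of the members was 0.76 in T. americanus, -1.53 in T. duloticus and -0.91 in T. pilagens, where that of all contigs tested was within 0.02 of 0. Since the members were picked by this same contrast, nothing is read from their excess over the other contigs. The same holds for the 38 of 39 members whose states did not overlap, against 13.7% of contigs in T. americanus, 9.0% in T. duloticus and 17.3% in T. pilagens, and 9.83%, 9.98% and 5.36% in their hosts in the same order.

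The libraries left out by the study gave values that its choice had not used. They had been removed as outliers, so they need not represent their state. Each was placed by whether its log2 CPM lay on its own state's side of the midpoint between the kept libraries of both states. In T. americanus the left-out raiding library lay on the raiding side for 11 of 11 members and inside the range of the kept raiding libraries for 8. In T. pilagens it lay on the raiding side for 12 of 14 members and inside that range for 8. The 2 exceptions were the alpha-tocopherol transfer proteins contig_50359, with 46.8 CPM against a midpoint of 48.6 CPM, and rep_c8258, with 77.3 against 82.3 CPM. For rep_c8258 the states overlap once this library is counted. Over all contigs tested, 63.5% and 56.7% lay on the raiding side in these libraries, and over the contigs called by a likelihood ratio test on the kept libraries 89.8% and 81.8% did. The shares of the members were near those of the other contigs with a called difference. With 1 library per species no test over samples was possible.

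Among the hosts the left-out libraries of T. longispinosus lay on their own side for its 1 member, and those of T. curvispinosus in 3 of 4 placements, the exception being the defending library for contig_12125. In these species contigs in general lay about evenly on both sides, with 49.0% and 53.8% on their own side in T. longispinosus and 53.8% and 47.2% in T. curvispinosus for the non-raiding and the raiding library. Over the contigs called by the likelihood ratio test, 61.4% and 62.7% of 83 did so for T. longispinosus, and for T. curvispinosus 46.3% and 50.7% of 67. With all 8 libraries fitted, log2 fold changes were -1.40 for the T. americanus receptor, 1.52 for the T. pilagens fatty acid-binding protein and -1.25 for its sphingomyelin phosphodiesterase, close to the values without the left-out libraries. Other members moved more. In T. pilagens rep_c20924 went from -1.60 to -1.81 and rep_c8258 from 0.74 to 0.62, and in T. curvispinosus rep_c30905 went from -5.77 to -6.24.

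**Figure D5:**
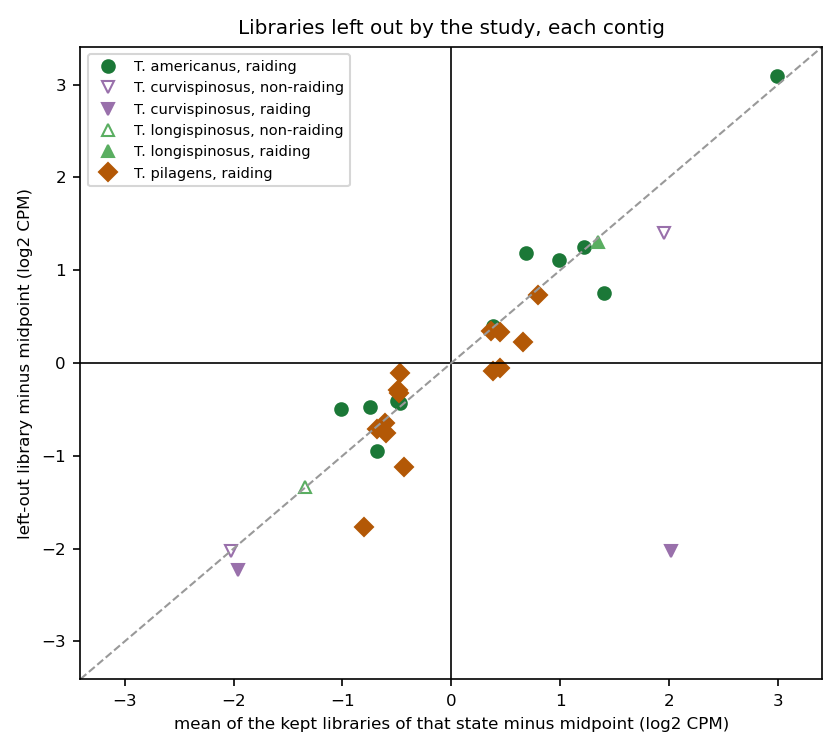
For each member, the log2 CPM of a library left out by the study minus the midpoint between states (vertical) against the mean of the kept libraries of that state minus the same midpoint (horizontal). Points in the upper right and lower left quadrants lie on their own state's side, and the dashed line marks equal values. All 11 points of T. americanus and 12 of 14 of T. pilagens lie in those quadrants.

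Other contigs of lipid use, 134 in all with a title from word lists, were also named only because the study called them, and their counts carry the same limit. Of 132 tested, 7 passed with a higher and 54 with a lower level in raiding workers, all in slavemakers. Fatty acid synthesis and activation made up 46 contigs, of which 15 of 20 passed as lower in T. duloticus, 11 of 20 as lower and 1 as higher in T. pilagens, and 0 of 6 in T. ambiguus, where all 6 had a higher level in defending workers without passing and all 6 passed the likelihood ratio test, which called 300 of 33331 contigs there. Desaturases, elongases and fatty acyl-CoA reductases made up 52, of which 5 passed as higher and 22 as lower. The background shares in a direction were 0.0793% higher and 0.284% lower in T. duloticus and 0.94% and 1.94% in T. pilagens.

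From the smaller lists the following were picked after their values were seen. Lipid storage droplets surface-binding protein 2, a coat protein of the droplets that store fat, had mean levels of 170 and 165 CPM in non-raiding and 293 and 299 CPM in raiding T. americanus for contig_105 and rep_c10659, and the first passed with a log2 fold change of 0.79 (SE 0.11). It averaged 135 and 211 CPM in T. pilagens and 109 and 255 CPM in T. ambiguus, without passing. Ceramide kinase, which acts on the ceramide that sphingomyelin phosphodiesterase releases, had log2 fold changes of -0.81 (SE 0.21) in T. americanus and -0.64 (SE 0.12) in T. duloticus, without passing. Low-density lipoprotein receptor-related protein 2, an uptake receptor of the megalin type, passed as lower in raiding T. pilagens, with 27.0 to 40.5 CPM in non-raiding and 6.73 to 9.69 CPM in raiding libraries and a log2 fold change of -2.02 (SE 0.18). Contig rep_c39990 of T. americanus, an ATP-binding cassette transporter of sub-family G by name, passed with 49.7 to 70.9 against 1.71 to 4.26 CPM and a log2 fold change of -4.14 (SE 0.33). Transferrin, given above, was the only name found from the fat body list (hexamerin, apolipophorin and transferrin). Vitellogenins were counted with ovary and yolk and went both ways in T. duloticus. There Vitellogenin-3 averaged 7240 CPM in non-raiding and 1380 CPM in raiding libraries, and Vitellogenin-6 averaged 272 and 519 CPM. The part of the fat body in these values was not tested.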

How the data were processed

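Whole-body RNA of 48 pools was sequenced as read pairs. The authors trimmed reads with Trimmomatic after FastQC, mapped them to 1 assembly per species with TopHat2 2.0.13 and Bowtie, and counted them with eXpress; tools named in the submitters' processing notes are given with the versions listed there. The deposited counts of reads per contig are whole numbers without normalization, from 43664 contigs in T. ambiguus to 79277 in T. curvispinosus. The authors' tables of called contigs also hold fold changes and p-values, which were not used, and match scores, and for T. americanus and T. duloticus the tables used here hold fewer contigs than the study states it called. Another 130 columns of per-sample values were not used. Identity was taken from the column of matching residues in those tables as deposited, whose definition (identical, or identical and similar) is not given in the sources used here, and codons are the matched span of the contig divided by the codon length.

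Each species was fitted on its whole table with edgeR 4.0.16 in R 4.3.3 (filterByExpr with a minimum count of 10, TMM, quasi-likelihood test, Benjamini-Hochberg adjustment), raiding against non-raiding, on the 42 libraries kept by the study. Standard errors were taken from the log2 fold change and F. CPM of the kept libraries use the TMM factors of that fit. Factors of the left-out libraries were computed apart, against the same reference library, and put on the same scale. A prior count of 2 was used for log2 CPM for the left-out libraries. In counts simulated with the means and library sizes of T. americanus, the fit called in the right direction 3 of 57 contigs changed 2-fold, 47 of 62 changed 4-fold and 76 of 77 changed 8-fold. The spread between simulated libraries was the same for all contigs. It was set below that fitted to the real counts, a common biological coefficient of variation of 0.492. These shares therefore do not give the sensitivity in the real counts. The pools of a state are the replicates, and the labels do not give the colonies of each.

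Members, lists, tests and rules were chosen with earlier results of these data known. Values of every library are given for all fatty acid-binding, scavenger receptor, sphingomyelin phosphodiesterase and host contigs and, of the alpha-tocopherol transfer proteins and of the lipases of each slavemaker, for the 3 with the largest log2 fold change among those with a mean of at least 5 CPM and states that do not overlap. After they were seen, acetylcholine receptors were dropped from the glycerolipid list (they stayed in the nervous system list), protease inhibitors from the digestive tract list and accidental matches from the nervous system list. The alternatives were a likelihood ratio test (with the filter and with none), no filter, DESeq2 1.42.0, RLE size factors, all 8 libraries, and leaving out each library, which was extended to the pooled ratios of contigs near 0 and to marker means after seeing the data.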

Additional observations from a re-analysis of the deposited data

Results flagged for a closer look

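Chance alone flags about 1 in 20 independent groups of 4 libraries, but the groups here share libraries, so that rate is only a rough guide. In 4 of the 47 groups 1 library lay far from the others. These were the non-raiding library BR_436 of T. americanus for the group 3 secretory phospholipase A2 rep_c10805 (213 CPM against 168 to 174 CPM), the non-raiding library BR_683 of T. pilagens for the alpha-tocopherol transfer protein rep_c24658 (29.0 CPM, the lowest of its group), the foraging library BR_691 of T. ambiguus for contig_44649 (0.297 CPM where the other 3 were at 0) and the defending library DR_695 of T. ambiguus for c201 (34.0 CPM). Of the 3 that were fitted, only the last moved the log2 fold change by more than the spread within states when left out. For contig_44649, with the other 3 libraries at 0, any count would have been flagged.

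Group 3 secretory phospholipase A2 contigs with the same best match went opposite ways in 2 species. rep_c10805 had a log2 fold change of -0.95 in T. americanus and rep_c10685 one of 3.39 in its host T. longispinosus, with no overlap between states in either. The difference between the species was not tested.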

How the results depend on the processing

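All 37 log2 fold changes kept their sign under all 479 alternatives, and 4 of the 37 moved by more than the spread within states, under 5 alternatives: rep_c2893 to -1.03 with all libraries, rep_c30905 to -7.84 and -4.96 without raiding library DR_413 or DR_416, c201 to 1.18 without library DR_695 and rep_c13101 to 3.20 without library BR_691. Every alternative refitted libraries by which the members had been picked, so the kept signs say little. Counts of called members depended on the test. Of 37 tested, 17 were called in the fit described, 34 by the likelihood ratio test, 35 of 39 by that test without the filter, 33 by DESeq2, 17 with RLE factors and 17 of 39 without the filter, whose per-species counts all stayed within 1.5 times. With the likelihood ratio test, with or without the filter, and with DESeq2, T. americanus had 5 lower members in place of 2 (4 with all libraries), T. duloticus 2 higher in place of 1 and 4 lower in place of 1, T. pilagens 6 higher in place of 3, and T. ambiguus 2 higher in place of 0. In T. curvispinosus the likelihood ratio test called 1 lower member, and without the filter also 1 higher.

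Leaving out 1 library moved the counts of called members to between 0 and 4 (higher) and 0 and 2 (lower) in T. americanus, 0 and 1 and 0 and 2 in T. duloticus, and 1 and 4 and 4 and 7 in T. pilagens. Without raiding library DR_437, DR_438 or DR_440 of T. americanus, 0 members were called in either direction, and without BR_433 the higher ones were 2. In T. duloticus 0 higher members were called without library BR_417, BR_418, BR_419, BR_420 or DR_422, and 0 lower ones without BR_417, BR_419, DR_421, DR_422 or DR_423, with 2 without BR_418. In T. pilagens 1 higher member was called without BR_681, BR_682, DR_684 or DR_685. Fewer libraries were fitted in each case. In hosts the counts stayed at 0.

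With all 8 libraries, 1 of 2 members of T. curvispinosus had states that did not overlap. Library totals or a median midpoint changed no placement count of a left-out library. The contigs of the lipid lists were named only where the study called them. Over all contigs tested the likelihood ratio test called 1106 in T. americanus, 936 in T. duloticus, 2054 in T. pilagens and 300 in T. ambiguus. The fit described called 325, 151, 1105 and 0 there. In the lipid lists the likelihood ratio test called 4 contigs in place of 2 for beta-oxidation, 49 in place of 27 for desaturation and elongation, 44 in place of 27 for synthesis, 2 in place of 0 for glycerolipids, 5 in place of 1 for droplets, 2 in place of 0 for sphingolipids, 6 in place of 2 for sterol transport and 10 in place of 2 for yolk uptake. No paired analysis was possible because library numbers are not shared between states and the labels do not say which libraries hold the same colonies. Depth limits the members under about 5 CPM, which rest on few counts per library.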
